A study of Mus musculus with 6 samples.

Results

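Immediate early genes are transcribed within minutes of a stimulus from factors already present in the cell, without new protein synthesis, and most of their mRNAs decay as quickly. Enzymatic digestion and handling of solid tissue is one such stimulus, and a set of these genes is known to rise while cells are being freed for single-cell RNA-sequencing. Many of their products form the AP-1 transcription factors or switch the response off again.

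The levels of 10 such genes were described in proximal pulmonary artery (PA) of mice: Fos, Fosb, Jun, Junb, Egr1, Ier2, Atf3, Zfp36, Nr4a1 and Dusp1. They were chosen by symbol from 53647 genes listed as genes known to respond to digestion. All 10 had counts. The libraries came from C57BL/6J wild-type mice whose arteries were chopped and digested with collagenase and elastase. There were 2 libraries from young mice at 3 months (3m and f3m) and 4 from old mice at 20 (20m), 24 (24m), 27 (m27mo) and 28 (f28m) months. Mice of both sexes were used, and the study gives f28m as the only old library from a female. The labels name no genotype or drug that differed between groups. All libraries were digested, so the genes cannot be compared here with undigested tissue, and a response to digestion cannot be told apart from expression in the intact artery. The labels do not say how many mice each library holds, while the study counts 4 old mice at these ages. In comparisons by age, p-values measure the spread between libraries. Where library was a block, they measure how differences within libraries varied from library to library.

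Libraries held 6355125 to 50436562 unique molecular identifiers (UMIs, each standing for 1 captured mRNA molecule). After filtering, 929 to 4024 cells were kept per library, 15409 in all, with median depths of 799 to 8118.5 UMIs. Within each library the counts of all cells of a type were added up and are given per 1000000 UMIs (CPM). Cell types were named from marker genes in clusters made without the 10 genes. The types of the arterial wall examined were fibroblasts (FBs, 1781 cells), smooth muscle cells (SMCs, 2441), endothelial cells (ECs, 2122) and perivascular macrophages (MΦs, 1254). Libraries 3m, f3m and 24m shared between 130 and 213 cell barcodes pairwise, against at most 4 in any other pair. The cells concerned were mostly airway epithelial (559 of 1376), with 10 FBs, 14 ECs, 19 perivascular MΦs and 8 SMCs. Over all barcodes, UMIs of Xist and the Y-linked Ddx3y numbered 437 and 556 in 3m, 1300 and 210 in f3m, 3113 and 8488 in 20m, 335 and 905 in 24m, 230 and 6272 in m27mo and 21952 and 3 in f28m. UMIs of Eif2s3y, also Y-linked, numbered 219 in 3m, 89 in f3m, 25 in 20m, 379 in 24m, 1997 in m27mo and 0 in f28m. In the kept cells of 20m, Xist and Ddx3y numbered 2392 and 203. In those of 24m they numbered 164 and 453, and in those of m27mo 46 and 5963. The counts of 20m thus do not settle the sex of its mice.

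Leaving out Egr1 and Ier2, RefSeq promoter sequences (mouse build GRCm38.p6) were read for 8 of the 10 genes. The 250 bases before the start of 5 of them are shown, on the strand of the gene, because they carried letters that inducible factors are known to bind. Capitals mark the cAMP response element (CRE) half-site TGACG or its complement CGTCA, the EGR motif GCGGGGGCG or its complement, and the CArG box of serum response factor.
Fos (chr12:85473640-85473889, plus strand): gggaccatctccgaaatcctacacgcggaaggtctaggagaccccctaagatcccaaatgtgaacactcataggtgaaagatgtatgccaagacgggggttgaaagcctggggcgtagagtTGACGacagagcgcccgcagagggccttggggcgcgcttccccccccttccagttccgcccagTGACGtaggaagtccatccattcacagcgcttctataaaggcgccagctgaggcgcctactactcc
Fosb (chr7:19310046-19310295, minus strand): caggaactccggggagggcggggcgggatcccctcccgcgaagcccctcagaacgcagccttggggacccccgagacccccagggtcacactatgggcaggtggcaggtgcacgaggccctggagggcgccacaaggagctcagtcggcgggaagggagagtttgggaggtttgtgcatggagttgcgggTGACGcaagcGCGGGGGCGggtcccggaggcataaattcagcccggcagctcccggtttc
Nr4a1 (chr15:101266596-101266845, plus strand): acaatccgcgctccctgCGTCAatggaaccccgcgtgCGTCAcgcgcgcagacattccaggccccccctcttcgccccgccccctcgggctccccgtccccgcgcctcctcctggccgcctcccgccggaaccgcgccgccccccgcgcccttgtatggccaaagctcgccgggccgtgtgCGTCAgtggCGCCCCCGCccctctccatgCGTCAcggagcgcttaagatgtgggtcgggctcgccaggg
Dusp1 (chr17:26508473-26508722, minus strand): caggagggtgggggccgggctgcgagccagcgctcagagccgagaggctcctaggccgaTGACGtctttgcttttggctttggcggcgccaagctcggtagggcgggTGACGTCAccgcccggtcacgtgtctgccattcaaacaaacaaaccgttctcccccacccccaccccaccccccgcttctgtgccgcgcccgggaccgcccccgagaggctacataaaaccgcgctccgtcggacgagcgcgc
Zfp36 (chr7:28379229-28379478, minus strand): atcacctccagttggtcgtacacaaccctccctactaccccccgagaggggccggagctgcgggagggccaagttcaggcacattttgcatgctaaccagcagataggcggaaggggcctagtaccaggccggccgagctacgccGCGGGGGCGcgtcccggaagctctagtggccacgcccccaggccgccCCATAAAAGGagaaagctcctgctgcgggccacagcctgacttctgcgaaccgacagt

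A CRE half-site on either strand was found before 6 of the 8 genes (Fos, Fosb, Junb, Atf3, Nr4a1 and Dusp1), against 17.8% of all 32851 promoters. Nr4a1 had 4 matches and Dusp1 had 3, 2 of which overlap in the full palindrome TGACGTCA. That palindrome was present in 1 of 8 genes and in 1.55% of all promoters. The EGR motif was found before Fosb, Zfp36 and Nr4a1 (3 of 8, against 2.57% of all promoters). The CArG box was found before Zfp36, 58 bases before its start, and in 1.47% of all promoters. The AP-1 motif TGANTCA was found in none of the 8 and in 6.75% of all promoters. A match describes letters in these windows and shows no binding.

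The genes were read first across libraries. The summed level of the 10 genes was lower in f28m than in every other library in each of the 4 wall types. In ECs, which line the lumen, it was 24419 CPM in 3m, 22028 in f3m, 17494 in 20m, 19050 in 24m, 7711 in m27mo and 2328 in f28m. The highest and lowest library thus differed 10.5-fold within 1 cell type. In FBs, the matrix-producing cells of the adventitia, the sums were 15034, 14334, 10652, 15730, 8957 and 2101 CPM in the same order of libraries. In perivascular MΦs they were 15619, 14447, 12654, 9690, 10245 and 2565 CPM. SMCs were named in 3 libraries, with 6049 CPM in 20m, 12814 in m27mo and 1698 in f28m. Thus f28m stood below all others in every wall type, while m27mo was next lowest in ECs and FBs and highest in SMCs.

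**Figure D1:**
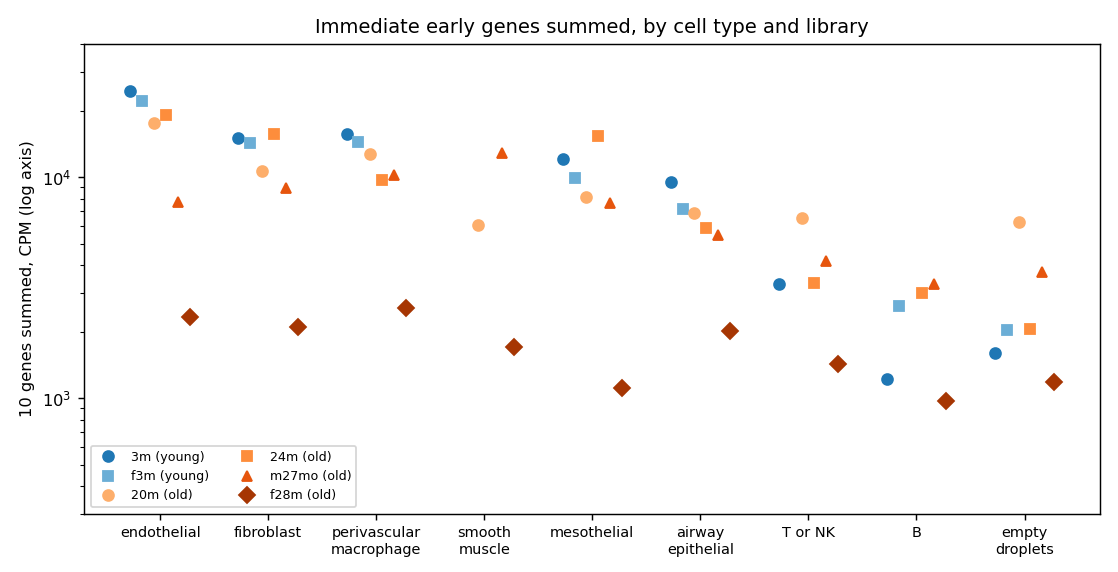
Summed level of the 10 immediate early genes (CPM, log axis) by cell type; each point is 1 library, and empty droplets are barcodes of 1 to 100 UMIs. Library f28m is lowest in every column, and T, NK and B cells lie below the wall cells of the same library, except T or NK cells of 20m against its SMCs.

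The pattern in f28m extended to other cells and to most of the genes. Over the 14 cell types that f28m shared with at least 1 other library, f28m was lowest in 117 of 140 gene and type pairs (83.6%). Over all genes with a mean of at least 100 CPM in the type it was lowest in 30.6% of pairs. In the 10 types with 3 or more libraries, the 10 genes were lowest in f28m in 78 of 100 pairs, against 18.8% over all genes. In the 4 types with 2 libraries the count was 39 of 40, against 57.7%. For Atf3, Dusp1, Junb, Nr4a1 and Zfp36 it was lowest in 13 of 14 types. Ier2, a small nuclear early response protein, was the exception, with f28m lowest in 6 of 14 types. Jun was lowest there in 10 of 14. Beside these levels, the median mitochondrial share of UMIs was 3.66% in f28m and 0.708% to 3.02% in the others, and median depth was 5429.5 UMIs in f28m against 8118.5 in m27mo. Their part in the low level was not tested. Age, sex and library cannot be told apart for f28m.

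Among AP-1 subunits, Fos and Fosb spread widely between libraries and Jun little. Fos, the best known partner of Jun in AP-1, was at 5525 CPM in ECs of 3m, 6020 in f3m, 3284 in 20m, 4719 in 24m, 1571 in m27mo and 241 in f28m. Fosb, its close relative, went from 8162 CPM in ECs of 3m to 143 in f28m, a 57.0-fold range. Jun in ECs lay between 525 CPM in f28m and 1697 in 20m, a range of 3.23-fold. The 2 young libraries lay above all old ones for Fos and Fosb in ECs, and inside the range of the old ones for Jun. Junb, a relative of Jun, was highest in ECs of 20m at 3521 CPM and lowest in f28m at 344 CPM. Atf3, a stress-induced repressor of the ATF/CREB family, lay between 889 and 1058 CPM in ECs of 3m, f3m, 20m and 24m, but was at 328 CPM in m27mo and 42.4 in f28m.

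Between-library spread was also set beside that of other genes, which were not matched to the 10 in level beyond a floor of 100 CPM. The standard deviation (SD) over libraries within a wall type, on the log2(CPM + 10) scale over 21 profiles, had a median of 1.29 for the 10 genes and of 0.62 for 1951 genes with a mean of at least 100 CPM. Of the 10 genes, 9 lay above that median and 7 in the top 10% of all genes. This rested on f28m: without it, over 17 profiles, the median was 0.63 for the 10 genes and 0.63 for 1915 genes, with 5 of 10 above the median and 0 in the top 10%. With f28m, Fosb had the largest value (SD 1.64), followed by Nr4a1 (1.62), an orphan nuclear receptor. Jun had the smallest (0.61), at percentile 49.4, and Ier2 the next (0.76).

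With f28m included, the range over libraries within a type was wider than the range over the wall types within a library. For the sum of the 10 genes, the median range over libraries was 7.52-fold and over types 1.64-fold. For Fos these were 11.6-fold and 2.17-fold, and for Dusp1, a phosphatase that inactivates MAP kinases, 6.30-fold and 1.69-fold. For Egr1, a zinc finger factor induced by growth factors and stretch, they were 10.7-fold and 2.74-fold. Fosb had both ranges wide, 19.2-fold over libraries and 8.32-fold over types. Without f28m the median range over libraries was 1.94-fold for the sum, 2.69-fold for Fos, 2.28-fold for Dusp1, 2.5-fold for Egr1 and 2.42-fold for Fosb.

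**Figure D2:**
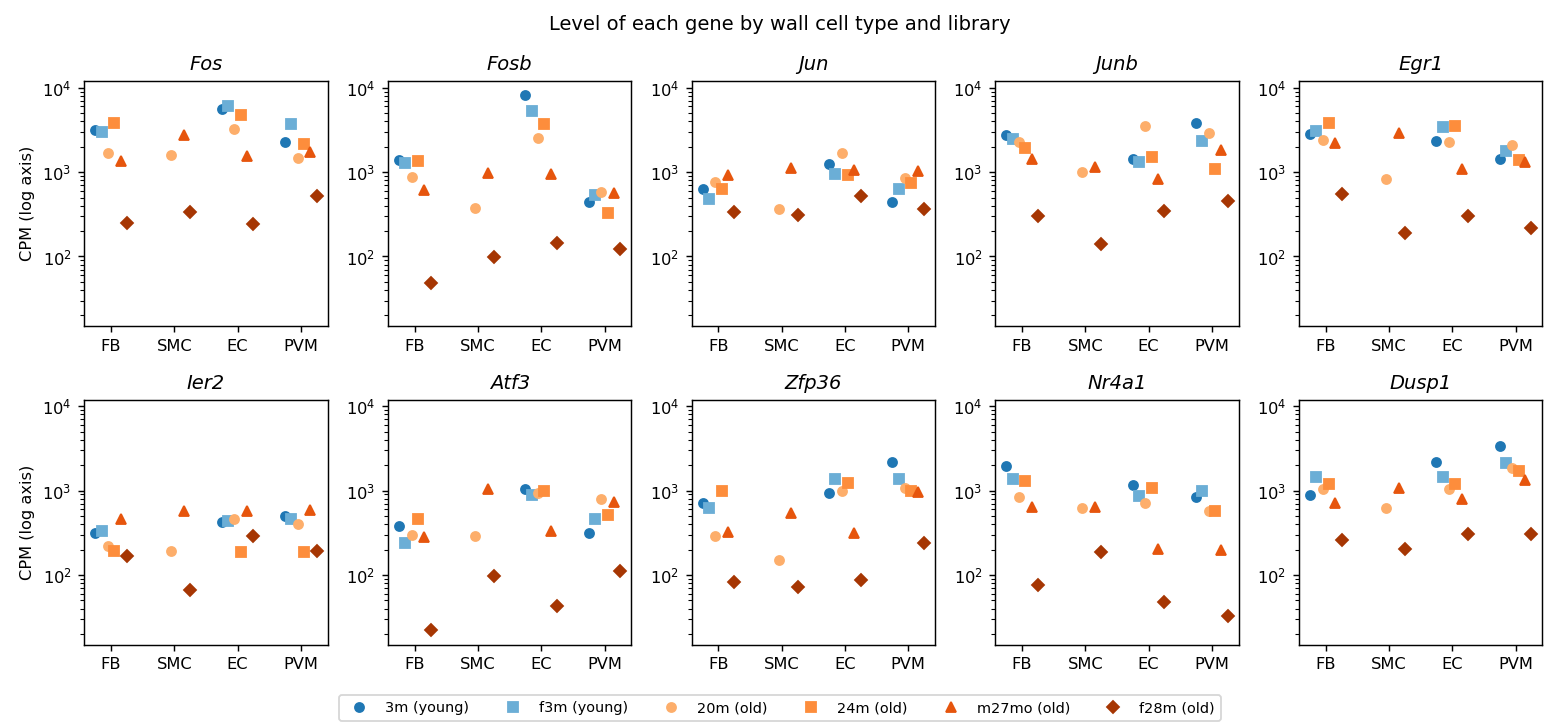
Level of each gene (CPM, log axis) in fibroblasts (FB), smooth muscle cells (SMC), endothelial cells (EC) and perivascular macrophages (PVM); each point is 1 library. Fosb sits higher in ECs and Zfp36 and Dusp1 higher in perivascular macrophages of most libraries, and f28m lies lowest for most genes.

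RNA outside cells gave a background for these levels. In barcodes of 1 to 100 UMIs, taken as empty droplets, the 10 genes summed to 1602 CPM in 3m, 2041 in f3m, 6279 in 20m, 2051 in 24m, 3726 in m27mo and 1183 in f28m. The order differed from that of the cells, since 20m had the highest sum outside cells. Over the 21 wall profiles, gene levels in cells exceeded those in empty droplets of the same library in 196 of 210 cases, with a median ratio of 3.45. All 14 exceptions were in 20m (34 of 40 above) and f28m (32 of 40 above). The summed level in SMCs of 20m (6049 CPM) was not above that of its empty droplets, so SMC values of 20m cannot be told from background.

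Lymphocytes of the same libraries held less. The sum in B cells was 1224 CPM in 3m, 2600 in f3m, 2997 in 24m, 3277 in m27mo and 971 in f28m. With each cell thinned to 500 UMIs, Fos was found in 84.9% of ECs and 2.60% of B cells in 3m, whose levels were 5525 and 62.6 CPM. In f28m it was found in 8.17% of ECs and 1.73% of B cells, at 241 and 50.5 CPM. Junb went against this order, with 4147 CPM in T or NK cells of 20m against 3521 in its ECs. These lymphocyte values are a description, as no test was run on them.

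To ask how the genes differed between wall cell types, levels were fitted over 21 profiles with library as a block, so that each type was compared within libraries. A gene was called where edgeR's quasi-likelihood test gave an adjusted p (Benjamini-Hochberg) under 0.05, over all 9068 genes tested. Of 60 comparisons (10 genes in 6 pairs of types), 19 were called. Of all genes tested, 30.1% were called between FBs and SMCs (1 of the 10 here), 29.8% between FBs and ECs (4 of 10), 46.1% between FBs and perivascular MΦs (5 of 10), 36.2% between SMCs and ECs (1 of 10), 50.7% between SMCs and perivascular MΦs (5 of 10) and 42.9% between ECs and perivascular MΦs (3 of 10). The share called among the 10 genes was thus at or below that of all genes in 4 of the 6 pairs. All 19 kept their direction under every alternative, but 11 of 19 were not called without f28m, 3 without 20m, 10 with clusters made from all variable genes and 7 with at least 1000 UMIs per cell. With clusters from all variable genes, 6 of the 10 genes were called lower in SMCs than in ECs, against 0 in the main fit.

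Fosb was higher in ECs than in FBs and perivascular MΦs. Its level in ECs was 8162 CPM in 3m, 5267 in f3m, 2545 in 20m, 3696 in 24m, 952 in m27mo and 143 in f28m. In perivascular MΦs of the same libraries it was 448, 529, 583, 330, 572 and 124 CPM, below ECs in 6 of 6. The difference was 2.09 ± 0.47 (log2, SE, edgeR adjusted p = 0.0012) and stayed called under all 12 alternatives. Against FBs, where Fosb was at 1388, 1290, 865, 1369, 618 and 49.1 CPM, ECs were also higher (FBs minus ECs -1.68 ± 0.44, edgeR adjusted p = 0.0066). Against SMCs the difference (SMCs minus ECs) was -1.52 ± 0.61 and was not called (edgeR adjusted p = 0.060). Jun (-0.72 ± 0.25, edgeR adjusted p = 0.029) and Atf3 (-1.21 ± 0.40, edgeR adjusted p = 0.025) were lower in FBs than in ECs as well. Of the 12 alternatives, Jun was called in 5 and Atf3 in 8. Fos, Egr1, Junb and Ier2 did not pass the test between FBs and ECs, and neither did Zfp36 and Dusp1.

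Both feedback genes were higher in perivascular MΦs than in each of the other 3 wall types. Zfp36, which encodes tristetraprolin and promotes decay of inflammatory mRNAs, was at 2192 CPM in perivascular MΦs of 3m, 1368 in f3m, 1079 in 20m, 999 in 24m, 958 in m27mo and 239 in f28m. In FBs it was at 719, 621, 289, 981, 319 and 81.8 CPM, lower in each library. The difference from perivascular MΦs was -1.45 ± 0.33 for FBs (log2, edgeR adjusted p = 0.00088), -1.41 ± 0.43 for SMCs (edgeR adjusted p = 0.0088) and -0.82 ± 0.33 for ECs (edgeR adjusted p = 0.047), although ECs were the higher in f3m and 24m. Dusp1 was at 3402, 2152, 1860, 1713, 1333 and 302 CPM in perivascular MΦs. In FBs it was at 896, 1433, 1036, 1202, 715 and 259 CPM, again lower in 6 of 6 libraries (-0.96 ± 0.23, edgeR adjusted p = 0.0015). SMCs (-0.85 ± 0.30, edgeR adjusted p = 0.023) and ECs (-0.73 ± 0.23, edgeR adjusted p = 0.012) were lower too. Zfp36 and Dusp1 between FBs and perivascular MΦs stayed called under all 12 alternatives. Between ECs and perivascular MΦs, Zfp36 was called in 6 of 12 and Dusp1 in 9. Between SMCs and perivascular MΦs they were called in 11 and 7. Junb (-1.20 ± 0.37, edgeR adjusted p = 0.0084) and Ier2 (-0.81 ± 0.32, edgeR adjusted p = 0.035) were lower in SMCs than in perivascular MΦs. Without f28m, Junb, Ier2, Zfp36 and Dusp1 were no longer called between SMCs and perivascular MΦs, with 2 SMC libraries left.

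Nr4a1 ran the other way. In FBs it was at 1969 CPM in 3m, 1386 in f3m, 838 in 20m, 1300 in 24m, 642 in m27mo and 75.5 in f28m. In perivascular MΦs it was at 842, 985, 576, 568, 198 and 32.9 CPM, lower in every library. FBs exceeded perivascular MΦs by 0.93 ± 0.27 (log2, edgeR adjusted p = 0.0059) and ECs by 0.76 ± 0.27 (edgeR adjusted p = 0.033). SMCs exceeded perivascular MΦs by 1.52 ± 0.34 (edgeR adjusted p = 0.00053) and ECs by 1.35 ± 0.34 (edgeR adjusted p = 0.0026). In SMCs its level was 621 CPM in 20m, 641 in m27mo and 189 in f28m. The SMC value of 20m was below that of ECs in the same library, and empty droplets of 20m held 551 CPM. Without f28m the difference from ECs was 0.80 for FBs and 0.84 for SMCs, and neither was called. Egr1 was higher in FBs than in perivascular MΦs (0.78 ± 0.30, edgeR adjusted p = 0.035), and was called in 6 of 12 alternatives.

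Atf3 was lower in FBs than in each of the other wall types, with 379, 239, 297, 466, 284 and 22.4 CPM in FBs and 1058, 889, 924, 994, 328 and 42.4 CPM in ECs. Against perivascular MΦs the difference was -1.20 ± 0.40 (log2, edgeR adjusted p = 0.017), although FBs were the higher in 3m (379 against 314 CPM). Against SMCs it was -1.44 ± 0.49 (edgeR adjusted p = 0.030), although FBs were slightly the higher in 20m (297 against 291 CPM). Without f28m, neither of these differences was called. Fos was not called between any pair of wall types.

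Other early genes, from lists of 16 transcription factors and 22 feedback and effector genes, were read in the same fits. Between FBs and ECs, 3 of 14 tested transcription factors were higher in FBs and 2 lower. Nr4a3, a relative of Nr4a1, was higher in FBs (3.34 ± 0.51, edgeR adjusted p = 5.4e-05), as was Cebpb (2.42 ± 0.35, edgeR adjusted p = 5.5e-06), whereas Klf2, a factor induced by flow, was higher in ECs (-1.71 ± 0.31, edgeR adjusted p = 0.00013). Between ECs and perivascular MΦs, 6 of 20 feedback and effector genes were higher in ECs and 8 lower. They were led by the matrix-associated Ccn1 (5.70 ± 0.38, edgeR adjusted p = 1.2e-11) and Ccn2 (5.58 ± 0.34, edgeR adjusted p = 3.2e-12). These differences in Ccn1 and Ccn2 were larger than any among the 10 genes. Of 12 heat shock and chaperone genes, 1 was higher and 2 lower in ECs than in perivascular MΦs, with Hspb1 at 3.66 ± 0.37 (edgeR adjusted p = 1.2e-08).

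The design also compares old with young. In FBs, ECs and perivascular MΦs all 6 libraries entered, and 5 entered in cluster 18. The named SMC clusters held too few young cells for a comparison by age. Cluster 18 carried SMC markers but was led by the heart muscle genes Tnnt2 and Actc1, so it is given by number and not as SMCs. None of the 10 genes was called in any of the 4 comparisons, by edgeR or by DESeq2. At an unadjusted p under 0.05 the count was 0 of 10 in each with edgeR, and 1 of 10 in ECs with DESeq2. Of all genes tested, edgeR called 0.0449% in FBs, 0.0% in ECs (337 of 5889 at an unadjusted p under 0.05), 0.0% in perivascular MΦs (327 of 5681) and 0.148% in cluster 18. DESeq2 called 1 gene in ECs and 2 in perivascular MΦs.

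Estimates were nonetheless mostly below 0 in 3 of the 4. The median log2 difference (old minus young) of the 10 genes was -0.44 in FBs, with 1 of 10 above 0, against 0.23 over all genes. It was -0.73 in ECs (1 of 10 above 0, all genes 0.13) and -0.76 in perivascular MΦs (2 of 10, all genes 0.09). In cluster 18 it was 0.56, with 10 of 10 above 0 and 0.19 over all genes. Without f28m the medians moved to -0.13 in FBs, -0.27 in ECs and -0.40 in perivascular MΦs. In cluster 18 the sum was 4278 CPM in 3m, 5014 in f3m, 6986 in 24m, 10165 in m27mo and 1120 in f28m, and without m27mo the median turned to -0.83. These 4 comparisons share libraries and are not independent of each other.

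**Figure D3:**
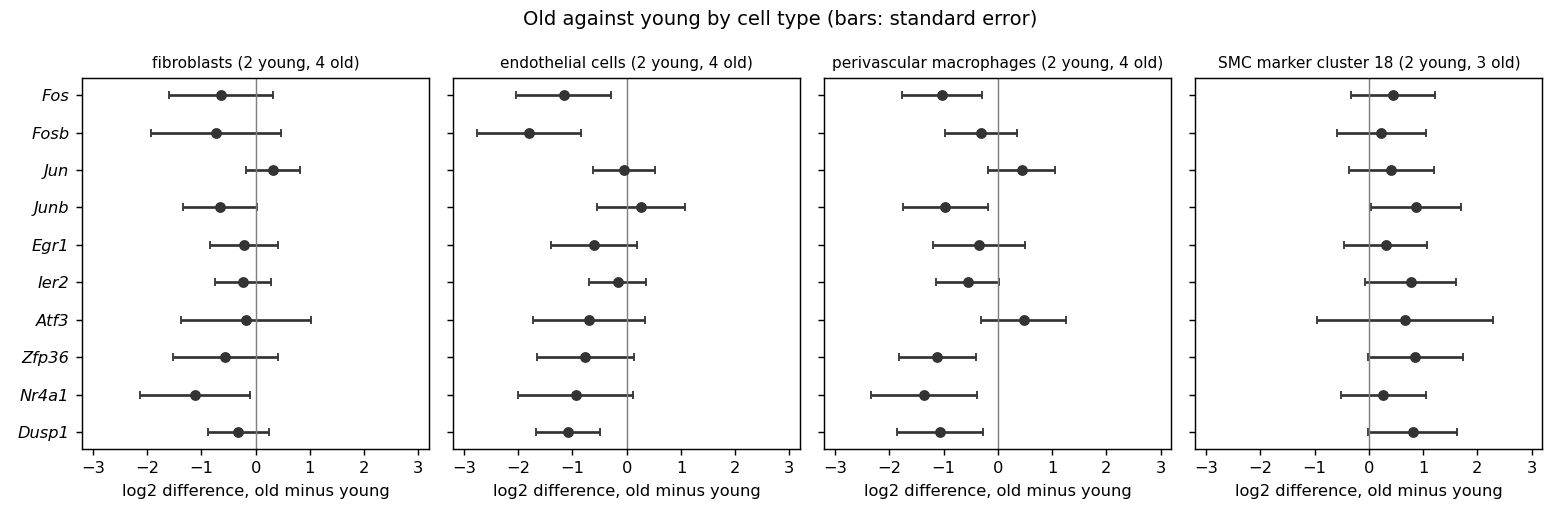
Log2 difference, old minus young, of each gene in 4 cell types, with bars of 1 SE from the edgeR fit. Points lie mostly left of 0 in fibroblasts, endothelial cells and perivascular macrophages and right of 0 in cluster 18, and no gene was called.

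The largest estimates came with wide errors. Fosb in ECs differed by -1.80 ± 0.97 (log2, edgeR adjusted p = 0.90), from a mean of 6714 CPM in 2 young to 1834 in 4 old libraries. Dusp1 in ECs differed by -1.08 ± 0.59 (edgeR adjusted p = 0.90), with 2166 and 1459 CPM in young and 1058, 1210, 800 and 307 CPM in old libraries. Nr4a1 differed by -1.11 ± 1.02 in FBs (edgeR adjusted p = 0.90), and Junb by -0.65 ± 0.68 (edgeR adjusted p = 0.91). In perivascular MΦs, Zfp36 differed by -1.11 ± 0.72 (edgeR adjusted p = 0.81) and Fos by -1.03 ± 0.73 (edgeR adjusted p = 0.82). In cluster 18, Junb differed by 0.87 ± 0.83 and Dusp1 by 0.81 ± 0.82 (edgeR adjusted p = 0.99 for both). Every old library lay below both young ones for 2 of 10 genes in FBs (Junb and Nr4a1), against 10.2% of all genes with a mean of at least 100 CPM there. The counts were 3 in ECs (Fos, Fosb and Dusp1, all genes 9.84%), 4 in perivascular MΦs (Fos, Zfp36, Nr4a1 and Dusp1, all genes 7.33%) and 0 in cluster 18 (all genes 14.1%). For 0 of 10 genes did all old libraries lie above both young ones, against 7.26% of all genes in FBs, 5.69% in ECs, 5.41% in perivascular MΦs and 9.2% in cluster 18.

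Libraries 3m, f3m and 24m, which shared barcodes and had median depths of 841, 817 and 799 UMIs, allowed 1 old library to be set against both young ones. In FBs, 24m lay above both for 5 of 10 genes and below both for 3, against 30.3% and 32.1% of all genes with a mean of at least 100 CPM. In ECs it was above for 2 and below for 5 (all genes 33.2% and 33.8%), and in perivascular MΦs above for 2 and below for 8 (all genes 22.1% and 32.3%). In cluster 18 it was above for 4 and below for 1 (all genes 35.2% and 38.9%). With membership of this set as a covariate, the age term rests on 24m against 3m and f3m, since 24m is the only old library in the set. In that fit the median difference was 0.37 in FBs, -0.02 in ECs and -0.43 in perivascular MΦs. In cluster 18 it went from 0.56 to 0.015, with 6 of 10 above 0 and -0.61 over all genes. The direction in FBs therefore changed with this covariate. The young FBs were mostly in cluster 11 and young ECs in cluster 14, and within those single clusters the medians were -0.42 and -0.82.

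None of the genes of the other lists was called by age in these fits, by edgeR. The 14 other early transcription factors tested in FBs had a median of -0.42 and the 12 tested in ECs of -0.59. The feedback and effector genes had medians of -0.50 in FBs and -0.19 in ECs. In perivascular MΦs the medians were -0.52 and -0.49. Heat shock and chaperone genes were at 0.37 in FBs and -0.00048 in ECs.

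The genes were last read against detection of Cdkn1a, which encodes p21, an inhibitor of cyclin-dependent kinases that is induced by p53 and often used to mark senescent cells. A cell was taken as having Cdkn1a where at least 1 of its UMIs was among 500 drawn at random from that cell, so that deep and shallow cells had the same chance. The share of such cells in ECs was 23.3% in 3m, 11.3% in f3m, 27.1% in 20m, 19.9% in 24m, 6.69% in m27mo and 7.55% in f28m. It was thus lowest in ECs of both libraries where the early genes were lowest. This match did not hold in FBs, where it lay between 3.45% in f3m (1 of 29 cells) and 22.2% in 20m, with 5.77% in f28m. In perivascular MΦs it lay between 3.28% in f28m and 24.2% in 3m. In SMCs it lay between 2.08% in f28m and 5.22% in m27mo. Median depth of cells with and without Cdkn1a was 656 and 646 UMIs in ECs of 3m, and 1918 and 1905 in ECs of 20m. It differed more elsewhere, in both directions. It was 3430 and 2840 in ECs of m27mo, and 2458 and 2902 in ECs of f28m. In perivascular MΦs it was 648 and 804 in f3m, and 8113 and 5133 in f28m.

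Over all kept cells of a library, cells with Cdkn1a held more of the 10 genes than cells without. The summed level was 14734 against 6754 CPM in 3m, a ratio of 2.18. The ratio was 1.81 in f3m, 1.48 in 20m, 1.86 in 24m, 1.10 in m27mo and 1.15 in f28m. When cells were compared within their own type, the ratios were 1.25, 1.30, 1.28, 1.25, 1.13 and 1.11 in the same order. Within clusters they were 1.21, 1.17, 1.25, 1.21, 1.12 and 1.09. They stayed above 1 in 6 of 6 libraries at each level, but most of the excess in 3m, f3m and 24m was not present within types. Junb, Dusp1 and Jun were above 1 in 6 of 6 libraries at each of the 3 levels.

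**Figure D4:**
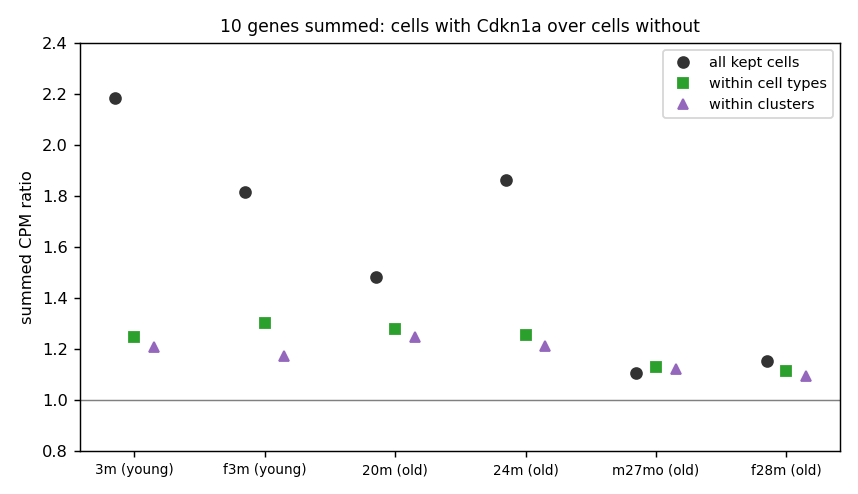
Ratio of the summed CPM of the 10 genes in cells with Cdkn1a to that in cells without, for all kept cells, within cell types and within clusters; each point is 1 library. Ratios over all cells reach 2.18 in 3m, while those within types lie between 1.11 and 1.30.

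Within the wall types, 17 pairs of type and library had at least 10 cells with and 10 without Cdkn1a. Of the 170 gene ratios, 121 were above 1 (71.2%), whereas over 1988 genes with a mean of at least 100 CPM, 46.7% were. The sum of the 10 genes was higher in cells with Cdkn1a in 5 of 5 libraries in ECs (ratio 1.10 to 1.38), 6 of 6 in perivascular MΦs (1.02 to 1.51), 3 of 4 in FBs (0.99 to 1.28) and 1 of 2 in SMCs (0.88 and 1.20). Many of these sums rest on few cells, such as 10 with Cdkn1a in perivascular MΦs of f3m.

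No single gene of the 10 was called between cells with and without Cdkn1a in any of the 4 types, by edgeR's quasi-likelihood test with library as a block or by DESeq2. At an unadjusted p under 0.05 edgeR gave 2 of 10 in FBs, 1 in ECs, 0 in perivascular MΦs and 2 in SMCs. Of all genes tested, 0.433% were called in FBs, 1.2% in ECs, 0.0% in perivascular MΦs (261 of 5680 at an unadjusted p under 0.05) and 0.0211% in SMCs. The median log2 difference of the 10 genes (with minus without) was -0.02 in FBs, 0.19 in ECs, 0.15 in perivascular MΦs and 0.18 in SMCs. Over all genes it was -0.03, -0.05, -0.10 and -0.01.

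Nr4a1 came nearest to the threshold, in FBs. Its level in FBs with and without Cdkn1a was 1562 and 592 CPM in 20m, 1653 and 1243 in 24m, 701 and 636 in m27mo and 90.4 and 74.5 in f28m. It was higher in 4 of 4 libraries, with ratios of 2.64 in 20m and 1.10 to 1.33 in the others. The fitted difference was 0.47 ± 0.15 (log2, edgeR adjusted p = 0.23). It was called with library totals in place of TMM (0.56, edgeR adjusted p = 0.010) and without f28m (0.61, edgeR adjusted p = 0.0047). It was not called in the other 9 alternatives, where the difference ran from 0.23 without 20m and 0.26 with a second random draw to 0.76 without m27mo, with adjusted p from 0.098 to 1.0 by edgeR or DESeq2. Junb in FBs differed by 0.28 ± 0.13 (edgeR adjusted p = 0.78) and was called with a second random draw (0.47) and without f28m (0.49), and in the other 9 alternatives it ran from 0.13 to 0.37 and was not called. In ECs, Dusp1 differed by 0.37 ± 0.18 (edgeR adjusted p = 0.54), higher in 5 of 5 libraries, and Zfp36 by 0.35 ± 0.20 (edgeR adjusted p = 0.70), also in 5 of 5. In perivascular MΦs, Atf3 differed by 0.34 ± 0.20 and Nr4a1 by 0.31 ± 0.20 (edgeR adjusted p = 0.99 for both), each higher in 5 of 6 libraries. In SMCs, Atf3 differed by 0.33 ± 0.15 and Junb by 0.31 ± 0.14 (edgeR adjusted p = 1.0 for both), higher in 2 of 2. Fos was at a difference of -0.17 ± 0.16 in ECs and -0.15 ± 0.13 in FBs.

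**Figure D5:**
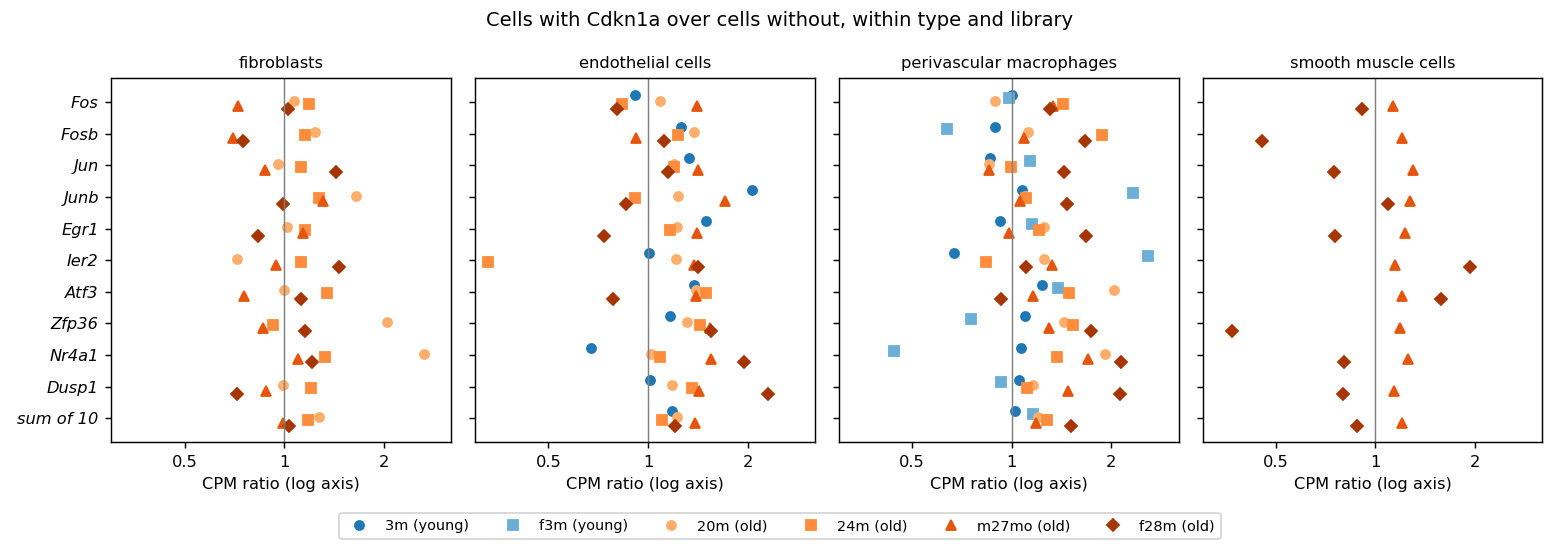
Ratio of CPM in cells with Cdkn1a to that in cells without (log axis) for each gene and for the sum of the 10, by wall cell type; each point is 1 library with at least 10 cells on both sides. Points lie on both sides of 1 for most genes, and Nr4a1 in fibroblasts lies above 1 in 4 of 4 libraries.

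Targets of p53 were read in the same fits. Of 6 tested, 6 had estimates above 0 in FBs with Cdkn1a, with a median of 0.89, and 3 were called: Trp53inp1 (1.58 ± 0.31, edgeR adjusted p = 0.00038), Bax (1.05 ± 0.21, edgeR adjusted p = 0.00044) and Mdm2 (1.03 ± 0.27, edgeR adjusted p = 0.025). These calls depended on the processing. Over all genes, calls higher in FBs with Cdkn1a fell from 11 to 1 with DESeq2. They fell to 0 with drawn UMIs only, without 20m and without m27mo, so none of the 3 was called there. Of the 10 early genes, 5 had estimates above 0 in FBs, and the difference between both lists was not tested. No p53 target was called in ECs (4 tested), perivascular MΦs (4) or SMCs (6). No heat shock gene and no other early gene of the lists was called in any type.

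Finally, genes were ranked by how closely their level followed that of the 10, taken as the mean of their log2(CPM + 10). This covered 54 profiles of 14 types and 6 libraries. Pearson's r on the log2(CPM + 10) scale was used as a description over 13376 genes, whose median r was -0.03. The profiles share libraries, and the 10 genes are part of that mean. Fos had r = 0.95, Fosb 0.91, Egr1 0.90, Dusp1 0.90, Atf3 0.89, Nr4a1 0.84 and Zfp36 0.84. Jun (0.72), Junb (0.64) and Ier2 (0.63) followed it less closely and ranked 20, 43 and 46. Among the closest genes outside the 10 were Ifrd1 (0.84), Ier3 (0.81), Midn (0.78), Nufip2 (0.78), Ints6 (0.77), Ppp1r10 (0.77), Klf4 (0.76), Wsb1 (0.75) and Lsmem1 (0.75). Of these, Ier3 and Klf4 were on the lists of other early genes read above. Cdkn1a had r = 0.67 and ranked 28.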

How the data were processed

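Single-cell libraries (10x 3' chemistry) were deposited as whole-number UMI counts per gene and barcode. Per the labels and the study's methods, the authors trimmed reads with Cutadapt and counted them with STARsolo on GRCm38.p6. Versions are not given in the sources used here. Barcodes with at least 500 UMIs, 300 genes and at most 20% mitochondrial UMIs were kept, and 213 of 15622 were removed as doublets with Scrublet.

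Cells were clustered with scanpy 1.11.5 (Leiden, 46 clusters) without the 10 genes, Cdkn1a and the listed genes. Clusters were named from markers, and 1744 cells stayed unnamed. Clusters led by markers of another type stayed unnamed. One of them, cluster 18, was compared by age under its number, since the named SMC clusters held too few young cells. Counts were summed per library and type (at least 10 cells) and tested with edgeR 4.0.16 (TMM, quasi-likelihood, Benjamini-Hochberg), in R 4.3.3, with a gene kept if over 5% of cells carried it in 3 libraries or more. The fits were tested on simulated data. Each of the 10 genes, the 3 largest called changes of other lists and the 10 most alike genes were named, except 1 that is not reported here.

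The 10 genes and the lists were chosen with earlier results of these data known. A further young library was not analysed here.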

Additional observations from a re-analysis of the deposited data

Results flagged for a closer look

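Zfp36 in perivascular MΦs was at 239 CPM in f28m, against 958, 999 and 1079 CPM in the other 3 old libraries, a gap beyond Dixon's 95% critical value for 4 samples. It was the 1 value to pass that limit among 33 groups of 4 old libraries (10 genes and their sum in ECs, FBs and perivascular MΦs), and chance passes about 1 in 20 groups.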

How the results depend on the processing

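Under every alternative that could be fitted, 0 of the 10 genes were called by age in FBs, ECs, perivascular MΦs and cluster 18. The median age difference in FBs turned from -0.44 to 0.37 with the barcode-sharing set as covariate. Leaving out 1 library gave -0.83 to 1.10 in cluster 18, where Junb ranged from -0.89 to 1.35 and Dusp1 from -0.28 to 1.24, both lowest without m27mo.

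For Cdkn1a, in FBs 1 gene was called with a second draw and 1 with library totals, and 0 to 2 on leaving out a library. The median there, -0.02, became 0.017 with DESeq2, 0.16 with Cdkn1a among all UMIs, 0.10 with drawn UMIs only, 0.20 with the second draw, 0.068 with library totals, and -0.054 to 0.18 without single libraries. In ECs it became -0.015 with no gene filter, and in perivascular MΦs -0.13 with no gene filter and -0.0052 with the second draw. With Cdkn1a among all UMIs, 2 genes were called in perivascular MΦs and 1 in SMCs, where the median was 0.34. Atf3 turned to -0.060 in perivascular MΦs with the second draw and to -0.089 in SMCs with drawn UMIs only.

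Between types, the 19 calls became 12 at 1000 UMIs and 500 genes, and 9 to 19 on leaving out a library. Between ECs and perivascular MΦs, 1 was called with clusters from all variable genes, and 1 to 4 without single libraries. Between FBs and ECs, 2 were called with no gene filter, 1 at 1000 UMIs and 2 with those clusters, and 2 to 3 without single libraries. Between FBs and perivascular MΦs, 2 were called with those clusters and 3 to 5 without single libraries. Between FBs and SMCs, 2 were called with DESeq2 and 2 with those clusters, and 0 to 2 without single libraries. With those clusters the 2 were higher in FBs, whereas the 1 main call, Atf3, was lower. Between SMCs and ECs, 3 were called with DESeq2, 2 with no gene filter, 6 with those clusters, 4 with library totals and 1 to 4 without single libraries. With those clusters all 6 were lower in SMCs, whereas the 1 main call, Nr4a1, was higher. Without m27mo, 1 was higher and 3 lower in SMCs. Between SMCs and perivascular MΦs, 3 were called with no gene filter, 3 at 1000 UMIs, 3 thinned to 500 UMIs and 1 to 5 without single libraries.

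Over all genes, calls by age in FBs (3) ranged from 0 to 13, in ECs (0) to 7, in perivascular MΦs (0) to 26 and in cluster 18 (5) from 0 to 23. Calls by Cdkn1a in FBs (28) ranged from 0 to 110, in ECs (70) from 0 to 143, in perivascular MΦs (0) to 79 and in SMCs (2) from 0 to 9. Calls between FBs and SMCs fell from 2725 of 9068 genes tested to 1034 of 3164 when thinned to 500 UMIs, the lowest count between types. The highest came between SMCs and perivascular MΦs, from 4601 of 9068 to 6434 of 30439 with no gene filter. The number of genes tested thus changed as well. The cause was not tested. Age in ECs and in cluster 18 at 1000 UMIs, and Cdkn1a in SMCs without a library, could not be fitted. Library totals, single clusters, all SMC clusters and library spread without f28m were alternatives chosen after seeing the data. The lowest median depth was 799 UMIs, in 24m, and the FB profile of f3m held 29 cells. No paired analysis was possible because the labels give young and old libraries no shared replicate numbers.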
